A study of Mus musculus with 5 samples.

Results

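The genes described here are 34 genes of apoptosis and the p53 response, a set that joins p53 itself with its regulators and targets, the Bcl2 family, the caspases and the inhibitors of apoptosis. A gene was counted as measured where the array's gene table gave a probe its symbol, and its brightest probe was used. This held for 32 of the 34 genes, through 35 probes, out of 17742 named genes and 26423 probes on the array. Trp53 and Bax have no probe under those symbols in the gene table used here and are not analysed, so the level of p53 RNA is not part of what follows.

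The RNA came from the striatum, the forebrain region that loses most neurons in Huntington's disease, of 5 male FVB mice aged 12 months. The 3 mice called HD_miR196a had 2 transgenes, one that models Huntington's disease (HD) and one for the precursor of the microRNA miR-196a. The 2 mice called HD had the disease transgene alone. That transgene, shared by all 5 mice, encodes the first exon (exon 1) of human HTT, bearing 84 CAG repeats, joined to GFP. A human ubiquitin promoter drove both transgenes, so neither was limited to neurons. The labels describe better motor function in the HD_miR196a mice. Neither healthy control mice nor the amount of miR-196a were analysed here. Each mouse is 1 sample, because its 2 technical repeats had been combined before deposit, and the number of mice limits the precision of every value.

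p53 is a transcription factor that cells stabilise when DNA is damaged or stress persists. It switches on genes that halt the cell cycle, repair damage or start apoptosis, and Mdm2 and Mdm4 hold it in check. In apoptosis, BH3-only proteins of the Bcl2 family release Bax and Bak1 from survival proteins such as Bcl2, the mitochondrial outer membrane opens, and Apaf1 and Casp9 start a chain of protein-cutting caspases that inhibitor of apoptosis proteins restrain. In Huntington's disease, fragments of mutant huntingtin have been linked to p53 activity, and caspase 6 is known for cutting huntingtin.

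The microRNA whose overexpression separates the groups is shown first, since its bases 2 to 8, the seed that pairs with target RNAs, are in capitals. RefSeq lists the same mature sequence for both mouse copies (GRCm38.p6, chr11:96265187-96265208 and chr15:102973365-102973386, both on the plus strand), while the sources used here do not give the transgene's own sequence.
miR-196a-5p: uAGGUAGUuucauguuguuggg

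The promoters of the set were searched for the p53 half-site consensus, the 10-base unit that 1 pair of p53 subunits binds. The consensus equals its own reverse complement, so both strands were covered. RefSeq windows of 300 bases, from 250 before to 50 after a start site, were available for 29 of the 34 genes, and 8 of the 29 (27.6%) had a half-site in at least 1 window: Trp53, Mdm2, Cdkn1a, Ccng1, Gadd45a, Sesn1, Bax and Birc2. Among all 27025 genes with a window, 9.55% had one. The set was put together with known p53 targets in it, so its larger share is no independent result. A gene with more windows also has more chances of a match. The 29 genes had 41 windows, and the 27025 genes had 32851, of which 8.36% held a half-site. The stretches below surround the half-sites, in capitals, that lie before the start of 5 measured genes.
Cdkn1a, chr17:29090886-29090957, plus strand: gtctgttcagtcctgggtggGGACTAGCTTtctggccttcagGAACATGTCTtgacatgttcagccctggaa
Mdm2, chr10:117710915-117710964, minus strand: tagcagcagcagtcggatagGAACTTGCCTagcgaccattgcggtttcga
Ccng1, chr11:40755442-40755491, minus strand: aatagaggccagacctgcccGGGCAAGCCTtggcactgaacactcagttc
Gadd45a, chr6:67037418-67037467, minus strand: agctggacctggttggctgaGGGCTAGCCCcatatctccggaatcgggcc
Sesn1, chr10:41887246-41887295, plus strand: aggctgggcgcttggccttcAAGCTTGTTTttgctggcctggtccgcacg

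Only full matches to the consensus were counted as half-sites. By that rule Cdkn1a was the only gene of the set with 2 half-sites close together. They lay 12 bases apart, starting 73 and 51 bases before the start site of its upstream window. The 10 bases directly after the second half-site miss the consensus only at their first base, so they are not in capitals. The other window of Cdkn1a, at the downstream start, held none. A pair of half-sites with at most 13 bases between them occurred in 24 of 32851 windows on the whole, or 0.0731%. These are matches of letters and do not show binding in these mice.

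Probe levels are given as log2 of the quantile-normalised intensity, and differences are HD_miR196a minus HD with the standard error of the limma fit. All adjusted p-values come from that fit over all 26423 probes, two-sided, with Benjamini-Hochberg adjustment. Over the whole set, 25 of 32 genes were lower on average in HD_miR196a mice and 7 were higher. Over all 17742 genes 51.0% were lower. The median difference was -0.13 for the set, with single genes between -0.57 and 0.54, and -0.004 for all genes. The typical standard error of a single gene in the set was 0.135 (median), and the 95% intervals of all genes of the set but Cdkn1a and Mdm4 included 0.

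No gene of the set passed an adjusted p of 0.05, and limma called 0% of all probes. The smallest adjusted p in the set was 0.979. At an unadjusted p under 0.05, 2 of 32 genes (6.25%) were found, Cdkn1a and Mdm4, against 3.71% of all genes. The 3 HD_miR196a mice all lay below both HD mice for 8 of the 32 genes (Mdm2, Cdkn1a, Tnfrsf10b, Mcl1, Casp2, Casp6, Casp8 and Birc3), against 10.7% of all genes. They all lay above both HD mice for 1, Mdm4, against 10.0% of all genes. The groups thus did not overlap for 28.1% of the set and 20.7% of all genes. With 3 against 2 mice an exact permutation test cannot give a p below 0.1.

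The lower average was shared by dim and bright probes. Olfactory receptor genes, mostly silent in striatum, served as a measure of background: the 95th percentile of their 543 probes was 8.31 on the log2 scale. Of the set, 18 genes had a mean above it, and 14 of these were lower, with a median difference of -0.09. The other 14 (Mdm4, Sesn2, Perp, Fas, Tnfrsf10b, Bcl2l11, Bbc3, Pmaip1, Bad, Casp1, Casp6, Casp8, Birc3 and Diablo) lay within the range of olfactory receptor probes, and 11 were lower, with a median of -0.16. For all genes the medians were -0.007 above that level and 0 below it.

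By mouse, the median distance of the set from each gene's mean over the 5 mice was -0.04 in the first, -0.07 in the second and -0.01 in the third HD_miR196a mouse, against 0.07 in HD mouse 1 and 0.04 in HD mouse 2. HD mouse 1 was the highest of the 5 mice for 12 of 32 genes, against 21.1% of all genes, and was the single lowest for none. HD_miR196a mice 1 and 2 were each the single lowest for 10 genes, against 21.8% of all genes for mouse 1 and 18.9% for mouse 2. Without HD mouse 1 the set's median was -0.08, and without mouse 1 of each group it was -0.06, with 22 of 32 genes lower in each. Leaving out 1 mouse at a time moved the difference of 26 of the 32 genes by over 1.5 times or changed its sign; the other 6 were Mdm4, Cdkn1a, Tnfrsf10b, Bid, Casp1 and Birc3. Without scaling between arrays the set's median was -0.32, but that of all genes was then -0.21.

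**Figure D1:**
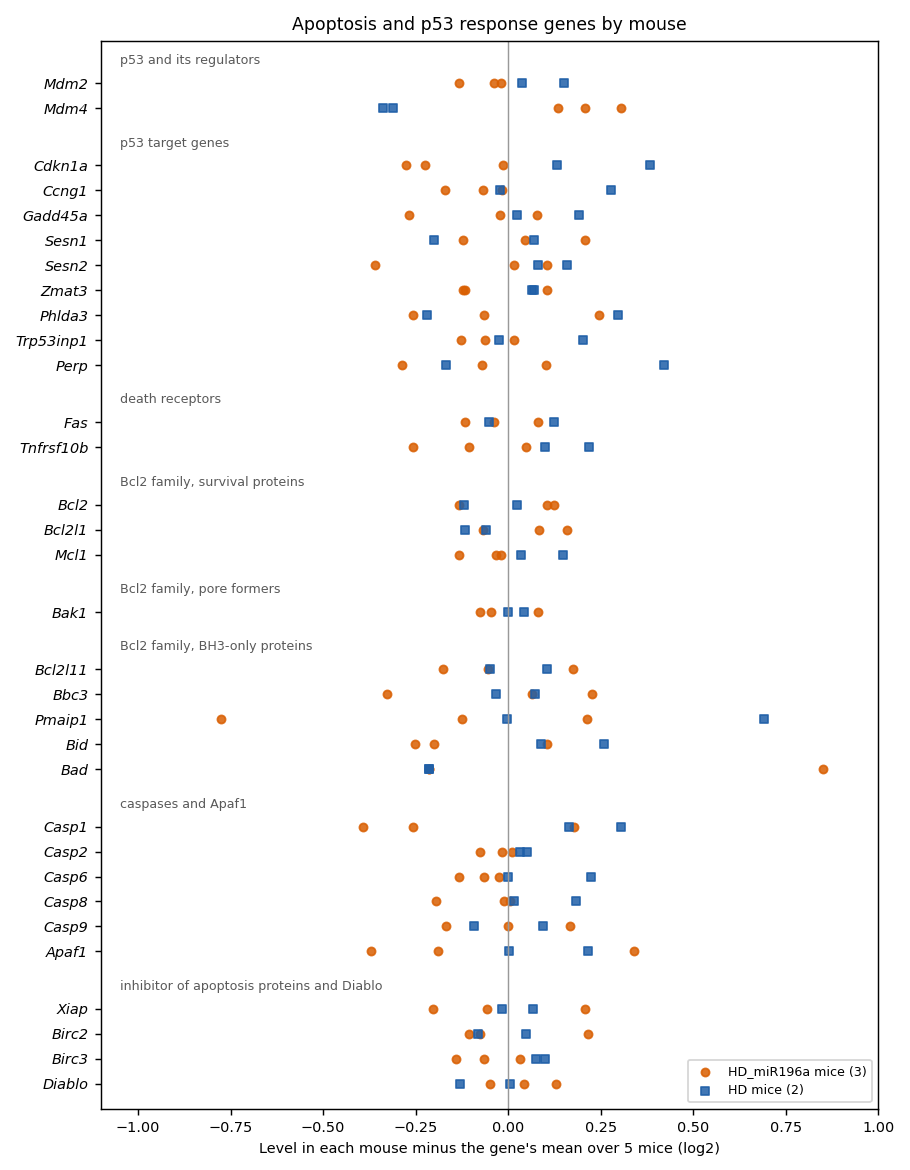
Level of each of the 32 measured genes in each mouse, as the log2 level minus the gene's mean over 5 mice (horizontal axis), with genes grouped by role down the page. Circles are the 3 HD_miR196a mice and squares the 2 HD mice; the groups stand apart for 9 genes, among them Cdkn1a and Mdm4, and Pmaip1 and Bad show the widest spread.

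Marker lists of the cell types in the tissue were set beside these values. Of 8 fixed markers of medium spiny neurons, the main striatal neuron, 6 had a probe, all above the olfactory receptor range. Their mean was 12.86 to 13.01 in HD_miR196a mice and 12.47 to 12.65 in HD mice, so the tissue carried its label's markers, and all 6 were higher in HD_miR196a mice without passing the test. The choroid plexus and ependyma list, with 6 of 6 measured and 3 higher, was also apart, at 8.12 to 8.80 in HD_miR196a mice against 7.92 to 8.06 in HD mice. So was the blood list, with 3 of 6 measured, at 8.75 to 8.93 in HD_miR196a mice against 8.49 to 8.73 in HD mice. The other lists overlapped. Microglia markers (7 of 8) were at 10.56 to 10.70 in HD_miR196a mice and 10.59 to 10.64 in HD mice. Oligodendrocyte markers (6 of 7) were at 11.88 to 12.53 in HD_miR196a mice and 11.66 to 12.09 in HD mice. Astrocyte markers (6 of 7) were at 11.93 to 12.21 in HD_miR196a mice and 12.18 to 12.19 in HD mice, and endothelial and pericyte markers (7 of 7) at 8.52 to 8.64 in HD_miR196a mice and 8.46 to 8.6 in HD mice. Not above the olfactory receptor range were 3 choroid plexus and ependyma, 1 blood, 4 endothelial and pericyte and 1 cortical projection neuron markers. Ttr, a choroid plexus marker among these, was at 10.64 in HD_miR196a mouse 1 and at 7.1 to 7.7 in all other mice. Cortical projection neuron markers (7 of 8) separated mice rather than groups: they were at 8.74 in mouse 1 and 11.03 to 11.47 in mice 2 and 3 of HD_miR196a, and at 9.28 in mouse 1 and 11.70 in mouse 2 of HD. The part of any of these in the differences of the set was not tested, and in bulk tissue fewer cells of a type and less RNA per cell cannot be told apart.

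Among the regulators of p53, Mdm2, the ubiquitin ligase that marks p53 for destruction and is itself a p53 target, was slightly lower in HD_miR196a mice. It measured 10.56, 10.47 and 10.58 in HD_miR196a mice, against 10.75 and 10.64 in HD mice. Every HD_miR196a mouse lay below both HD mice, though the nearest values of the groups were only a little apart. The difference was -0.16 ± 0.10 (SE, adjusted p = 0.979), with a 95% interval of -0.41 to 0.10.

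Mdm4, the relative of Mdm2 that blocks p53's transcriptional activity, had the smallest unadjusted p of the set (0.00321), on a very dim probe. Its brighter probe measured 4.26, 4.09 and 4.16 in HD_miR196a mice, against 3.64 and 3.62 in HD mice, a difference of 0.54 ± 0.10 (SE, adjusted p = 0.979). All of these values lie below the olfactory receptor median of 4.98. A second, dimmer Mdm4 probe differed the other way, by -0.62 ± 0.55 (SE), and the mean of both probes by -0.04, so the 2 probes give no common direction.

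Mdm2, Pmaip1, Bbc3 and the death receptor genes were counted under other roles, though p53 targets are among them. Of the 9 genes grouped as p53 targets, 8 were lower in HD_miR196a mice, with a median difference of -0.18 against -0.004 for all genes. None of the 9 passed the test. Leaving out 1 mouse at a time gave a median of -0.24 to -0.11, with -0.11 without HD_miR196a mouse 2 and -0.12 without HD mouse 1. Cdkn1a, which encodes the cell cycle inhibitor p21, is the best known of them. It measured 10.03, 10.29 and 10.08 in HD_miR196a mice, against 10.69 and 10.44 in HD mice. All HD_miR196a mice lay below both HD mice. The difference was -0.43 ± 0.14 (SE, adjusted p = 0.979), a ratio of 0.742, with a 95% interval of -0.79 to -0.07 before any adjustment. In the deposited intensities, before scaling, Cdkn1a was at 927.5, 1178.3 and 1058.8 in HD_miR196a mice, against 1816.0 and 1531.6 in HD mice. Without HD mouse 1 the difference was -0.30, and without mouse 1 of each group -0.25.

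Ccng1, cyclin G1, a p53 target that helps Mdm2 limit p53, came next by p. It measured 11.22, 11.17 and 11.06 in HD_miR196a mice, against 11.21 and 11.51 in HD mice, a difference of -0.21 ± 0.13 (SE). HD mouse 2 stood above the rest, while HD mouse 1 lay among the HD_miR196a mice. The Ccng1 difference was -0.06 without HD mouse 2 and -0.36 without HD mouse 1. Gadd45a, a DNA damage and growth arrest protein, differed by -0.18 ± 0.14, and the RNA-binding protein gene Zmat3 by -0.11 ± 0.11. Trp53inp1, a stress protein of autophagy and cell death, differed by -0.15 ± 0.12. Phlda3, a repressor of the survival kinase Akt, differed by -0.07 ± 0.23, with the mice numbered 1 highest in both groups, at 10.27 in HD_miR196a and 10.33 in HD. The sestrins, which curb the growth kinase mTORC1 under stress, pointed in different directions: Sesn1 by 0.11 ± 0.15 and the dimmer Sesn2 by -0.20 ± 0.17. Perp, a junction protein gene that p53 induces, was within the olfactory receptor range and differed by -0.21 ± 0.23, a sign that turned to 0.08 without HD mouse 1.

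Set beside the promoter search, the 6 measured genes with a half-site had a median difference of -0.17 (4 lower), and the 21 measured genes with a window but no half-site -0.06 (16 lower). Perp, Pmaip1, Tnfrsf10b, Trp53inp1 and Zmat3 had no window and were not searched. All of these were lower, from -0.57 for Pmaip1 to -0.11 for Zmat3. Whether a half-site goes with a lower level was not tested. The values of Cdkn1a, Mdm2, Ccng1, Gadd45a and Sesn1 given above belong to the sequences printed earlier, and their range, from -0.43 for Cdkn1a to 0.11 for Sesn1, runs on both sides of 0.

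Both death receptor genes were dim. Tnfrsf10b, the mouse receptor of the death ligand TRAIL, measured 5.73, 5.88 and 6.04 in HD_miR196a mice, against 6.09 and 6.21 in HD mice, a difference of -0.26 ± 0.13 (SE, adjusted p = 0.979). The groups did not overlap, but all values lie within the olfactory receptor range. Fas, the receptor of the Fas ligand, measured 5.60, 5.52 and 5.72 in HD_miR196a mice, against 5.76 and 5.59 in HD mice, and differed by -0.06 ± 0.12. Its groups overlapped.

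The survival proteins of the Bcl2 family did not share a direction. Mcl1, a short-lived guard of the mitochondrial membrane, measured 12.820, 12.719 and 12.835 in HD_miR196a mice, against 13.001 and 12.886 in HD mice. The groups did not overlap, and the difference was -0.15 ± 0.10 (SE, adjusted p = 0.979). Bcl2l1, which encodes Bcl-xL, the main survival protein of adult neurons, measured 9.47, 9.62 and 9.70 in HD_miR196a mice, against 9.48 and 9.42 in HD mice. HD_miR196a mouse 1 lay between the HD mice, and the difference was 0.15 ± 0.11 (SE). Bcl2, the founding member, gave 0.08 ± 0.13 with the brighter of its probes and 0.04 ± 0.09 with the dimmer. Bak1, the pore former that was measured, was at 8.86, 9.02 and 8.89 in HD_miR196a mice, against 8.94 and 8.98 in HD mice. Its difference of -0.04 ± 0.10 has a 95% interval of -0.29 to 0.22.

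Of the 5 BH3-only genes of the set, whose proteins trigger the pore formers, 4 were lower in HD_miR196a mice, with a median of -0.05 and no call. Leaving out 1 mouse at a time moved that median between -0.15, without HD_miR196a mouse 2, and 0.02, without HD mouse 2. Outside the set, the BH3-only genes Hrk (0.39 ± 0.40), Bik (0.49 ± 0.24) and Bmf (0.03 ± 0.11) were higher. Their relatives Bnip3 and Bnip3l differed by 0.01 ± 0.14 and -0.03 ± 0.09. Bid, which caspase 8 cuts to carry a death receptor signal to mitochondria, measured 8.79, 8.84 and 9.15 in HD_miR196a mice, against 9.30 and 9.13 in HD mice. HD_miR196a mouse 3 lay just above HD mouse 2, and the difference was -0.29 ± 0.15 (SE, adjusted p = 0.979). Pmaip1, which encodes the p53 target Noxa, had the largest negative difference of the set and the largest error among those lower, -0.57 ± 0.37. It measured 6.95, 6.29 and 7.28 in HD_miR196a mice, against 7.76 and 7.07 in HD mice. HD mouse 1 was highest and HD_miR196a mouse 2 lowest, HD mouse 2 lay inside the other group, and all values were within the olfactory receptor range. The Pmaip1 difference was -0.23 without HD mouse 1, where it was no longer the largest, -0.30 without HD_miR196a mouse 2 and -0.92 without HD mouse 2. Bcl2l11, which encodes Bim, differed by -0.05 ± 0.14. Bbc3, which encodes the p53 target Puma, gave -0.03 ± 0.19 with the brighter of its probes and 0.56 ± 0.43 with a probe near the floor. Bad was at the floor in 4 mice and at 1.06 in HD_miR196a mouse 1, so it gives no difference to read.

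All 5 measured caspases and Apaf1 were lower on average in HD_miR196a mice, from -0.39 for Casp1 to -0.002 for Casp9, with a median of -0.18 and no call. Casp1, the caspase of the inflammasome, measured 7.91, 7.78 and 8.35 in HD_miR196a mice, against 8.33 and 8.48 in HD mice. HD_miR196a mouse 3 lay between the HD mice, and the difference was -0.39 ± 0.20 (SE, adjusted p = 0.979). Its mean lay within the olfactory receptor range. Casp1 is known in brain chiefly from microglia, and of the 7 measured microglia markers 3 were lower in HD_miR196a mice and 4 higher. They ran from -0.30 for C1qa and -0.29 for Ctss to 0.32 for Tmem119, with no call, and their part in the Casp1 difference was not tested. Casp6, the executioner caspase that cuts huntingtin, measured 6.62, 6.73 and 6.68 in HD_miR196a mice, against 6.97 and 6.75 in HD mice. Its groups did not overlap, with the nearest mice almost level, and it differed by -0.19 ± 0.11, within the olfactory receptor range.

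Casp8, the initiator caspase of the death receptors, differed by -0.17 ± 0.12, within the olfactory receptor range, and Casp2, a stress-activated initiator, by -0.07 ± 0.09, both without overlap of the groups. Casp9, the initiator that acts at mitochondria, differed by -0.002 ± 0.141, with a 95% interval of -0.37 to 0.37. Apaf1, the scaffold that activates it, differed by -0.18 ± 0.24, and HD_miR196a mouse 3 was the highest of all 5 mice. Without HD mouse 1 the median of these 6 genes was -0.08, and without mouse 1 of each group -0.05.

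The inhibitors of apoptosis and their antagonist were divided, 2 lower and 2 higher, with a median of -0.007. Birc3, which encodes cIAP2, a regulator of inflammatory signalling, measured 5.50, 5.41 and 5.33 in HD_miR196a mice, against 5.55 and 5.57 in HD mice. The groups did not overlap, and the difference was -0.15 ± 0.10 (SE, adjusted p = 0.979). Diablo, the mitochondrial protein that releases caspases from these inhibitors, measured 5.58, 5.49 and 5.67 in HD_miR196a mice, against 5.55 and 5.41 in HD mice, a difference of 0.10 ± 0.11. Both probes lay in the olfactory receptor range. Xiap, the direct caspase inhibitor, differed by -0.04 ± 0.15 and Birc2, which encodes cIAP1, by 0.03 ± 0.14, both on bright probes with overlapping groups.

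**Figure D2:**
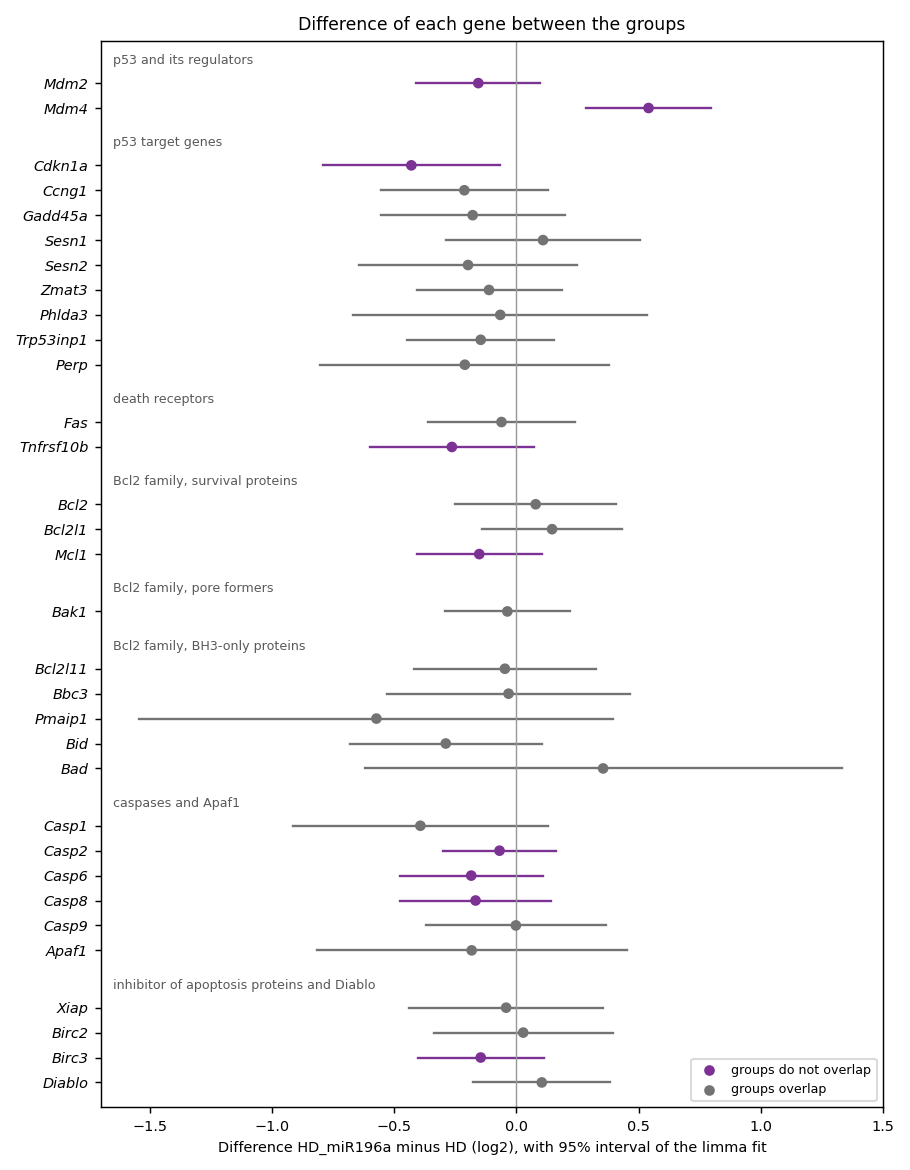
Difference of each gene between the groups on the log2 scale, HD_miR196a minus HD, with the 95% interval of the limma fit as a line, by role. Intervals are not adjusted for the number of genes; only those of Cdkn1a (-0.79 to -0.07) and Mdm4 (0.28 to 0.80) lie on 1 side of 0.

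Other genes of the same pathways, 84 in all, were taken from a list of regulators, targets and apoptosis genes outside the set, and 76 were measured. Of the 76, 39 were lower in HD_miR196a mice and 37 higher, with a median difference of -0.004, the same as that of all genes. None passed the test, and limma gave 0 an unadjusted p under 0.05, against 3.71% of all genes. For 22 of the 76 the groups stood apart (28.9%, against 20.7% of all genes), 10 with HD_miR196a mice below both HD mice and 12 with them above.

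Of 15 other regulators and cofactors of p53, 9 were lower, with a median of -0.07. By p these were led by Chek1, a kinase of the DNA damage checkpoint, at -0.31 ± 0.14 (SE) near the bottom of the scale. Ep300, an acetyltransferase that works with p53, differed by -0.16 ± 0.11 and Cop1, a ubiquitin ligase of p53, by 0.11 ± 0.09. Of 28 other genes listed as p53 targets, 15 were lower, with a median of -0.01. Not all of the 28 are established targets, and Cdkn2a and Trp53inp2 are among those that are not. The smallest p-values were those of Sfn, the cell cycle protein 14-3-3 sigma, at 0.22 ± 0.10, of Trp53inp2, the relative of Trp53inp1, at 0.22 ± 0.10, and of the kinase gene Plk3 at -0.29 ± 0.14, with Sfn and Plk3 within the olfactory receptor range. The lower average of the 9 genes grouped as targets in the set was thus not seen among these 28 listed genes. The difference between the 2 lists was not tested.

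Of 33 other apoptosis genes, 15 were lower and 18 higher, with a median of 0.009. Ripk1, a kinase that steers death receptor signals toward survival or death, measured 6.96, 6.80 and 7.17 in HD_miR196a mice, against 7.37 and 7.30 in HD mice. Its groups did not overlap, and the difference was -0.36 ± 0.14 (SE, adjusted p = 0.979). Bcl2l10, a Bcl2 relative, differed by 0.43 ± 0.17 and the BH3-only gene Bik by 0.49 ± 0.24. The probes of Ripk1, Bcl2l10 and Bik all lay within the olfactory receptor range.

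**Figure D3:**
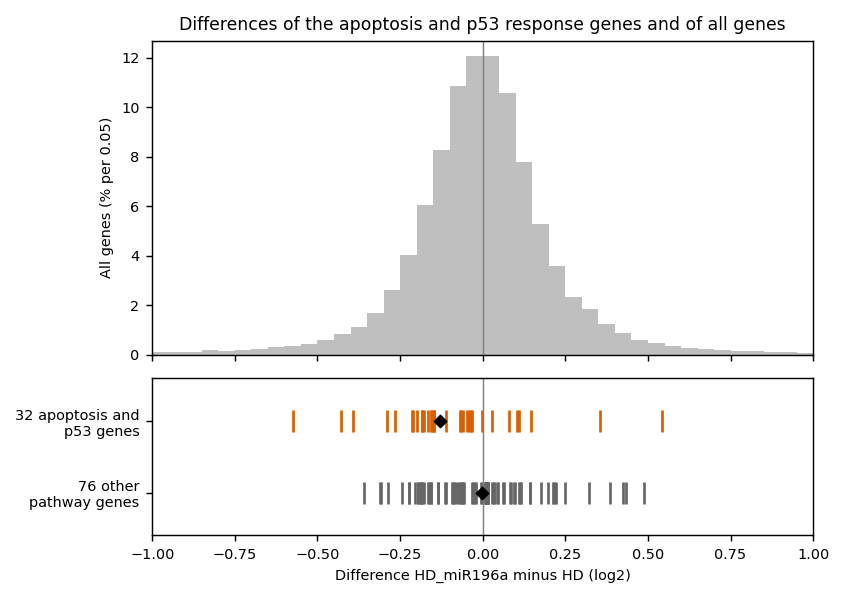
Upper panel, share of all 17742 genes by their difference HD_miR196a minus HD on the log2 scale, in steps of 0.05; 1.21% lie outside the axis. Lower panel, each vertical mark is 1 gene of the set (upper line) or 1 of the 76 other pathway genes (lower line), and diamonds are the medians, -0.13 and -0.004.

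The lower average of the set kept its sign under every setting tried, as the plot of the settings shows, but its size did not stay the same. Between 22 and 30 genes were lower with all 32 tested. Not one gene of the set was called in any setting, and the smallest adjusted p over all settings was 0.362, for several genes without scaling between arrays.

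**Figure D4:**
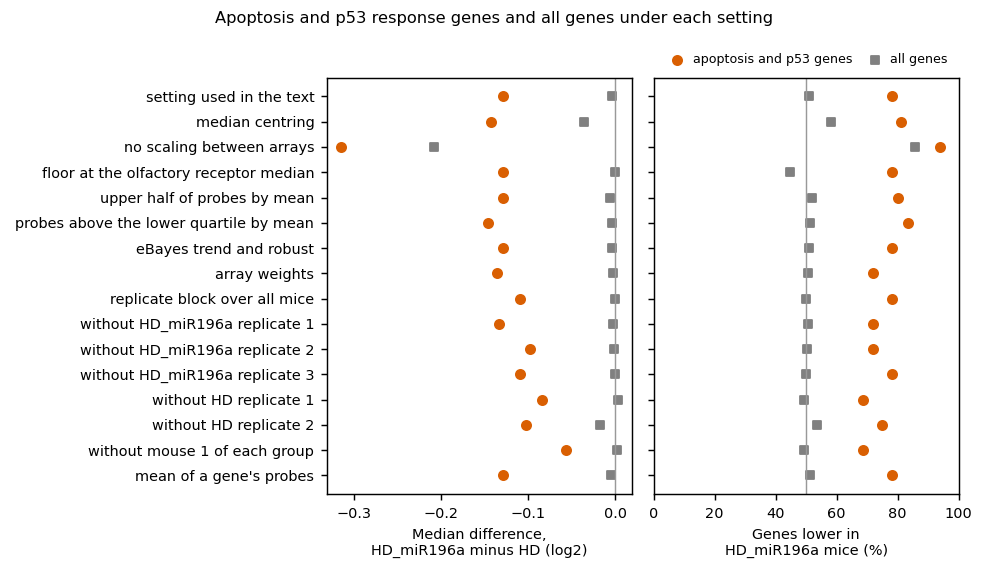
Median difference HD_miR196a minus HD on the log2 scale (left) and percent of genes lower in HD_miR196a mice (right) under each setting, with circles for the apoptosis and p53 genes and squares for all genes. The circles lie left of the squares in the left panel under all settings, from -0.13 with the setting used in the text to -0.06 without mouse 1 of each group and -0.32 without scaling, where all genes shift as well.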

How the data were processed

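The authors deposited linear probe intensities, 1 per probe and mouse. Per the labels, the RNA was amplified, Cy5 was the dye, and each mouse's 2 technical repeats were combined. Some values lie slightly below 0, so background had been subtracted. Scanner, software and scaling: not given in the sources used here. The medians of the deposited intensities ran over 160.0 to 166.3 in HD_miR196a mice and 184.3 to 185.6 in HD mice. Whether the mice came from separate litters is not stated, so p-values measure the spread between these mice.

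Intensities were quantile-normalised, set to a floor of 1, transformed to log2 and compared by limma's lmFit and eBayes (limma version 3.58.1, R version 4.3.3) over all 26423 probes, which left 3 residual degrees of freedom. The fit was run on simulated data with independent noise, which checked only that planted differences were estimated close to their size on average. Calls were not part of that check. Symbols came from the platform's gene table; 18213 matched RefSeq (GRCm38.p6) directly and 2126 through synonyms, 38 did not match and 6046 probes had none. Promoter and microRNA sequences are RefSeq's.

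The genes of the set and all lists were chosen with earlier results of these data known, and no list test was made. Every measured gene of the set is named; values per mouse are given for the 2 genes with the smallest p in each role, and from other pathway lists the 3 with the smallest p are named. Ripk1's values per mouse, and the differences of Hrk, Bmf, Bnip3 and Bnip3l, were added after they were seen. Cdkn2a is named without a value. Alternatives covered scaling, floor, filters, variance model, array weights, probe choice, threshold, a replicate block and left-out mice.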

Additional observations from a re-analysis of the deposited data

How the results depend on the processing

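Of 466 values of single genes under up to 15 alternatives each, 431 kept their sign, 4 were 0 to 3 decimals (Bad under 2 alternatives, Mdm4 and Xiap under 1 each) and 31, of 14 genes, changed sign, all with no call. The signs of 17 genes held throughout, with Cdkn1a between -0.668 and -0.254. The count of 0 called probes became 1 above the lower quartile of level, 2 with the olfactory receptor median as the floor, 2 at an adjusted p under 0.10, 3 with trend and robust settings, and 0 to 3 with 1 mouse left out, while the count of the set stayed 0. The fits without an HD mouse assume that the remaining one varies like the other group. Among the probes above the median level, 16 of the 20 genes still tested were lower, against 51.8% of all genes there.

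Without scaling, all genes shifted by -0.208 and the set by -0.315, or -0.107 relative to all genes. The medians were then -0.354 for p53 targets, -0.215 for BH3-only genes, -0.33 for caspases and Apaf1, -0.245 for the inhibitors and Diablo, and, of the other pathway genes, -0.243 for regulators, -0.213 for targets and -0.227 for apoptosis genes. Birc2 (-0.217), Sesn1 (-0.137), Bcl2l1 (-0.084), Bcl2 (-0.141) and Diablo (-0.034) changed sign there. Median centring gave -0.055 for other apoptosis genes and -0.045 for Birc2. Array weights gave 0.038 for Casp9 and 0.024 for Bbc3, and averaging probes by gene gave 0.262 for Bbc3 and -0.038 for Mdm4.

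Cortical neuron markers were lowest in mouse 1 of both groups; with these 2 mice left out, the medians were -0.056 for the set and -0.054 for caspases and Apaf1. Signs changed for Birc2 (-0.009), Phlda3 (0.056), Bcl2 (-0.042), Apaf1 (0.073), Perp (0.184), Bbc3 (0.072) and Fas (0.033). With 1 mouse left out, medians ranged from -0.134 to -0.084 for the set, -0.185 to -0.084 for caspases and Apaf1, -0.05 to 0.068 for the inhibitors and Diablo, -0.15 to 0.022 for BH3-only genes, -0.109 to -0.01 for other regulators, -0.081 to 0.024 for other p53 targets and -0.03 to 0.005 for other apoptosis genes. Genes whose sign depended on 1 mouse ranged from -0.075 to 0.093 for Birc2, -0.023 to 0.247 for Sesn1, -0.155 to 0.051 for Xiap, -0.323 to 0.193 for Phlda3, -0.094 to 0.091 for Casp9, -0.507 to 0.084 for Perp, -0.15 to 0.125 for Bbc3, -0.144 to 0.032 for Bcl2l11 and -0.149 to 0.029 for Fas.

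Whether equal mouse numbers pair the mice is not stated; only 2 numbers are shared, and deviations from the group means correlated at 0.236 for mice 1 and 0.17 for mice 2, values that are not independent with 2 HD mice. With the replicate block over all mice 0 probes were called, and 25 genes of the set were lower, against 50% of all genes. The set's median was then -0.109 and that of other apoptosis genes -0.029. The cause of these shifts was not tested. Low signal limits the 14 genes within the olfactory receptor range.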
